A study of Mus musculus with 15 samples.

Results

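Transcript levels after 8 h of GDNF and GFRalpha1 replacement were compared with those after 2 h in cultured mouse spermatogonial stem cells. The comparison used 6 of the 15 arrays of the series, the 3 titled as 8 h of replacement and the 3 titled as 2 h. The cultures were germ cell cultures enriched for spermatogonial stem cells, set up from C57BL/6 male mice 6 days of age, with no transgene or allele named. In both groups GDNF and GFRalpha1 had been taken away for 18 h before they were given back, so the groups differ by the time since their return. The other 9 arrays, 3 each of maintained cultures, of cultures at the end of the 18 h without the factors and of cultures at 4 h of replacement, gave the levels around the comparison and shared in the estimate of the spread. The labels name bFGF in the serum-free medium of the maintained cultures, and leave unstated whether each replicate was a culture of its own, so p-values measure the spread between these samples, which may be technical. No cultures kept for 8 h without the factors, or handled alike without them, are named, so later signalling, added time in culture and handling cannot be told apart.

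GDNF, glial cell line-derived neurotrophic factor, binds the co-receptor GFRalpha1 and activates the receptor tyrosine kinase RET. In spermatogonial stem cells this signal passes through SRC family kinases, AKT and the RAS to ERK cascade and maintains self-renewal. A receptor signal of this kind first raises immediate-early genes, which need no new protein, and later the genes that depend on the products of that first wave and on lasting kinase activity. Setting 8 h against 2 h asks which transcripts belong to the later wave and which early ones had already receded.

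The values were MAS5 signal, an intensity in arbitrary units that combines the probes of 1 probe set, and each of 13083 genes was represented by 1 probe set. Differences were tested with limma on log2 of signal plus 16, and "called" means an adjusted p below 0.05 there. Each array had a mean of 150 over the middle of its values. The median signal was 42.5 to 51.8 on the 2 h arrays and 50.9 to 55.8 on the 8 h arrays, and Pearson's r between the 6 arrays was 0.956 to 0.977 across probe sets. Differences were not even over the range of levels. The median log2 difference was 0.03 over all genes, 0.16 in the dimmest of 4 equal bins of genes by mean level and -0.08 in the brightest, where 65.9% of genes were lower at 8 h. With 3 arrays against 3 the smallest p of an exact test on 1 gene is 0.1. The calls therefore come from limma, which shares the spread over genes, and the number of arrays limits their precision.

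Between 2 h and 8 h, Ptn, a heparin-binding growth factor, Adh1, an alcohol dehydrogenase, Col3a1, a fibrillar collagen, and Bhlhe40, a transcriptional repressor, rose by 2.89- to 3.77-fold. Arrdc3, Ddit4, Camk2n1, Msi2 and the immediate-early gene Egr1 fell and were 1.66- to 2.45-fold lower. Fibroblast markers moved with the rises: 11 of 19 were called higher, with a median log2 difference of 1.12. Their mean level on each array was then added as a covariate, a setting chosen after seeing the data. With it Col3a1, itself 1 of these markers, was at 0.27 and Ptn at 0.53, both still positive but not called. The falls kept their sign, but only 2 genes in all, Arrdc3 and Camk2n1, were called in that fit. Egr1, Msi2, Ddit4 and the rise of Bhlhe40 (1.73) were not called, and the median standard error was 0.34 against 0.19 without the covariate. In all, 242 of 13083 genes were called, which is 1.85% of those tested. Of these, 193 were higher at 8 h (1.48%) and 49 were lower (0.375%), and 87 and 12 of them differed at least 2-fold. The unadjusted p was under 0.05 for 1897 genes. The arrays of the 2 times did not overlap for any of the 242, while over all genes 14.7% had 3 arrays at 8 h above all 3 at 2 h and 10.9% had 3 below. The median log2 difference was 0.97 among the genes called higher (range 0.54 to 2.02) and -0.76 among those called lower (-1.50 to -0.45). In bulk RNA, more or fewer cells of a type and more or less RNA per cell cannot be told apart.

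These counts depend on single arrays and on the scaling. The count of 242 was 184, 107 and 73 without 2 h replicate 1, 2 or 3 and 103, 61 and 95 without 8 h replicate 1, 2 or 3. It was 430 without withdrawal replicate 3, an array of another group with a beta-actin 3' to 5' ratio of 2.77 against 1.1 to 1.75 elsewhere. With every array shifted to 1 median the count was 136, and 54.4% of those calls were higher at 8 h in place of 79.8%. No called gene changed sign in that fit, and 43 genes, 35 higher and 8 lower, were called without each of the 6 arrays in turn.

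**Figure D1:**
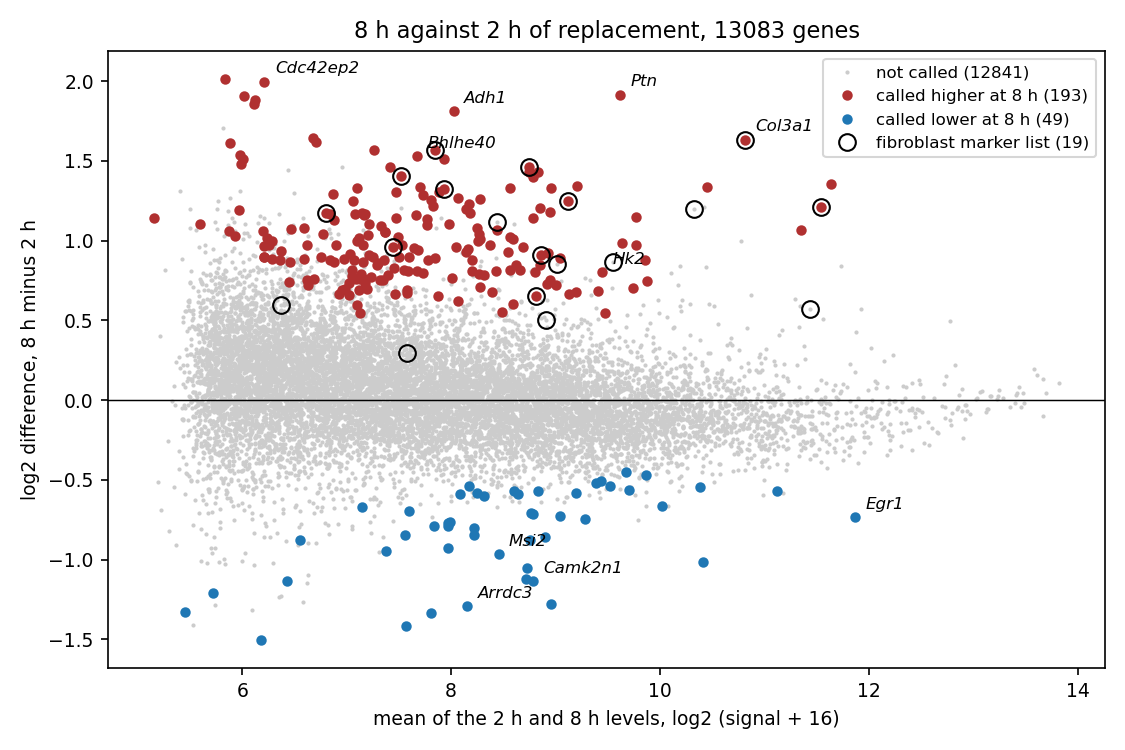
Each point is 1 of 13083 genes, with the mean of its 2 h and 8 h levels in log2 (signal + 16) on the x axis and its log2 difference, 8 h minus 2 h, on the y axis. Red points are the 193 genes called higher, blue points the 49 called lower and open circles the 19 tested fibroblast markers, all of which lie above 0.

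Arrdc3 had the smallest adjusted p of all genes named here. It encodes an arrestin-domain protein that promotes removal of receptors from the cell surface. Its signal was 467, 437 and 387 on the 3 arrays at 2 h and 152, 173 and 172 at 8 h, 2.45-fold lower (log2 -1.29, SE 0.12, adjusted p = 4.39e-05). Every array at 8 h lay below every array at 2 h, and the 3 at 4 h, 243, 243 and 255, lay between the 2 times. Cultures without the factors were at 344, 333 and 324 and maintained cultures at 177, 194 and 189, so the 8 h level was close to the maintained one.

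Camk2n1, an inhibitor of CaM kinase II, had stood far above its maintained level during withdrawal. Its signal was 783, 613 and 528 at 2 h and 243, 302 and 297 at 8 h, 2.2-fold lower (log2 -1.14, SE 0.17, adjusted p = 0.00298). The 8 h arrays were below all 2 h arrays but above the 145, 164 and 148 of maintained cultures. At 4 h the arrays read 647, 441 and 548 and overlapped those at 2 h. A second probe set of Camk2n1 had a log2 difference of -0.33 and was not called.

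Msi2, an RNA-binding protein of the Musashi family that controls translation in germ cells and stem cells, was at 472, 469 and 476 at 2 h and 200.0, 276 and 232 at 8 h (log2 -0.97, SE 0.17, adjusted p = 0.00759). The 3 arrays at 2 h were nearly equal and all lay above those at 8 h. Of its 7 other probe sets none was called, and 2 had the opposite sign, so the fall holds for the probe set measured and not for every transcript of the gene. Gga1, an adaptor for cargo sorting at the trans-Golgi network, was at 303, 220.3 and 349 at 2 h and 70.8, 149 and 85.5 at 8 h (log2 -1.41, SE 0.23, adjusted p = 0.00608). Pim3, a serine/threonine kinase that favours survival, went from 799, 685 and 755 to 275, 221 and 433 (log2 -1.28, SE 0.21, adjusted p = 0.00574). For both genes no array at 8 h reached the lowest at 2 h. The other probe sets of Pim3, at -0.42 and -0.15, were not called.

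The remaining large falls had weaker support. Zmym3, a zinc finger protein of chromatin complexes, went from 658, 653 and 479 to 196, 397 and 231 (log2 -1.12, adjusted p = 0.0198), and its 3 other probe sets lay between -0.77 and -1.05 without a call. Smoc1, a secreted calcium-binding protein, went from 580.4, 684 and 527 to 276, 297 and 263 (log2 -1.05, adjusted p = 0.0196). Crispld2, a secreted protein, was 2.53-fold lower (adjusted p = 0.0261) and Zbtb42, a zinc finger factor, 2.2-fold lower (adjusted p = 0.0352). Glis1, a Kruppel-like zinc finger factor (2.83-fold, adjusted p = 0.0447), and Lrrc73 (2.31-fold, adjusted p = 0.0431) had mean signals under 30.5 at 8 h, where the fold depends on the constant of 16. Glis1, Zbtb42 and Smoc1 lost the call without any 1 of the 6 arrays, with adjusted p-values of up to 0.18, 0.149 and 0.0963. Lrrc73, Crispld2 and Zmym3 lost it without 5, 4 and 4 of them, each without 8 h replicate 3 (for Lrrc73 at log2 -1.03, for Crispld2 at -0.93).

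Among rises, Cdc42ep2, an effector of the small GTPase CDC42, was at 23.8, 20.5 and 19 at 2 h and 137, 117 and 143 at 8 h (log2 2.00, SE 0.29, adjusted p = 0.00293). It had reached 118, 121 and 123 by 4 h, a level like that of maintained cultures (130.0, 118 and 99.1). Because the 2 h arrays lay under 30.5, its fold of 3.99 depends on the constant. Bhlhe40, a helix-loop-helix protein that also acts in the circadian clock, was at 102, 84 and 129 at 2 h and 327, 327 and 334 at 8 h (log2 1.53, SE 0.17, adjusted p = 0.000355). Its arrays at 4 h, 337, 502 and 435, were at or above the 8 h level, and maintained cultures read 507, 457 and 506.

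Ptn was at 422, 474 and 276 at 2 h and 1336, 1908 and 1282 at 8 h (log2 1.92, SE 0.26, adjusted p = 0.00151). Adh1, which oxidises ethanol and retinol, was at 141, 149 and 82.9 at 2 h and 456, 533 and 412 at 8 h (log2 1.81, SE 0.24, adjusted p = 0.00132). The lowest 8 h array was more than the highest 2 h array for each, and for both genes 2 h replicate 3 was the lowest of all 15 arrays. Akr1cl, an aldo-keto reductase, rose from 48, 48.7 and 35.2 to 168, 168 and 165 (log2 1.62, adjusted p = 0.00136). At 8 h Ptn, Adh1 and Akr1cl all stood above the maintained arrays, which for Adh1 read 124, 157 and 132.

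Svep1, a large adhesion protein of the matrix, went from 23, 7.2 and 7.6 to 92.4, 119 and 80.1 (log2 2.02, adjusted p = 0.00311), and with 2 h signals under 30.5 the size of that difference depends on the constant. It was still at 18.9, 23.1 and 22.5 at 4 h, unlike most of the genes that rose. The matrix proteoglycan gene Ogn (3.69-fold), the elastic fibre gene Emilin1 (3.62-fold), Pyroxd2 (3.75-fold) and the interferon-inducible GTPase gene Gbp6 (3.06-fold) likewise had mean signals under 30.5 at 2 h, so that their folds depend on the constant. Col3a1 rose from 1296, 1184 and 611 to 2801, 3567 and 2905 (log2 1.63, SE 0.25, adjusted p = 0.00311), and Postn, periostin, from 149, 127 and 78.1 to 302, 486 and 348 (log2 1.57, adjusted p = 0.00311). Fhl2, a LIM domain cofactor of the serum response factor, went from 70.9, 46.6 and 15.1 to 131, 155 and 188 (log2 1.64, adjusted p = 0.0137). Pyroxd2 lost its call without any 1 of the 6 arrays (adjusted p up to 0.195), and its second probe set had a log2 of -0.56. Gbp6 lost it without 5 of them (up to 0.23), Fhl2 without 2 h replicate 3 or 8 h replicate 2 or 3 (up to 0.0741) and Emilin1 without 8 h replicate 2 (0.0528).

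**Figure D2:**
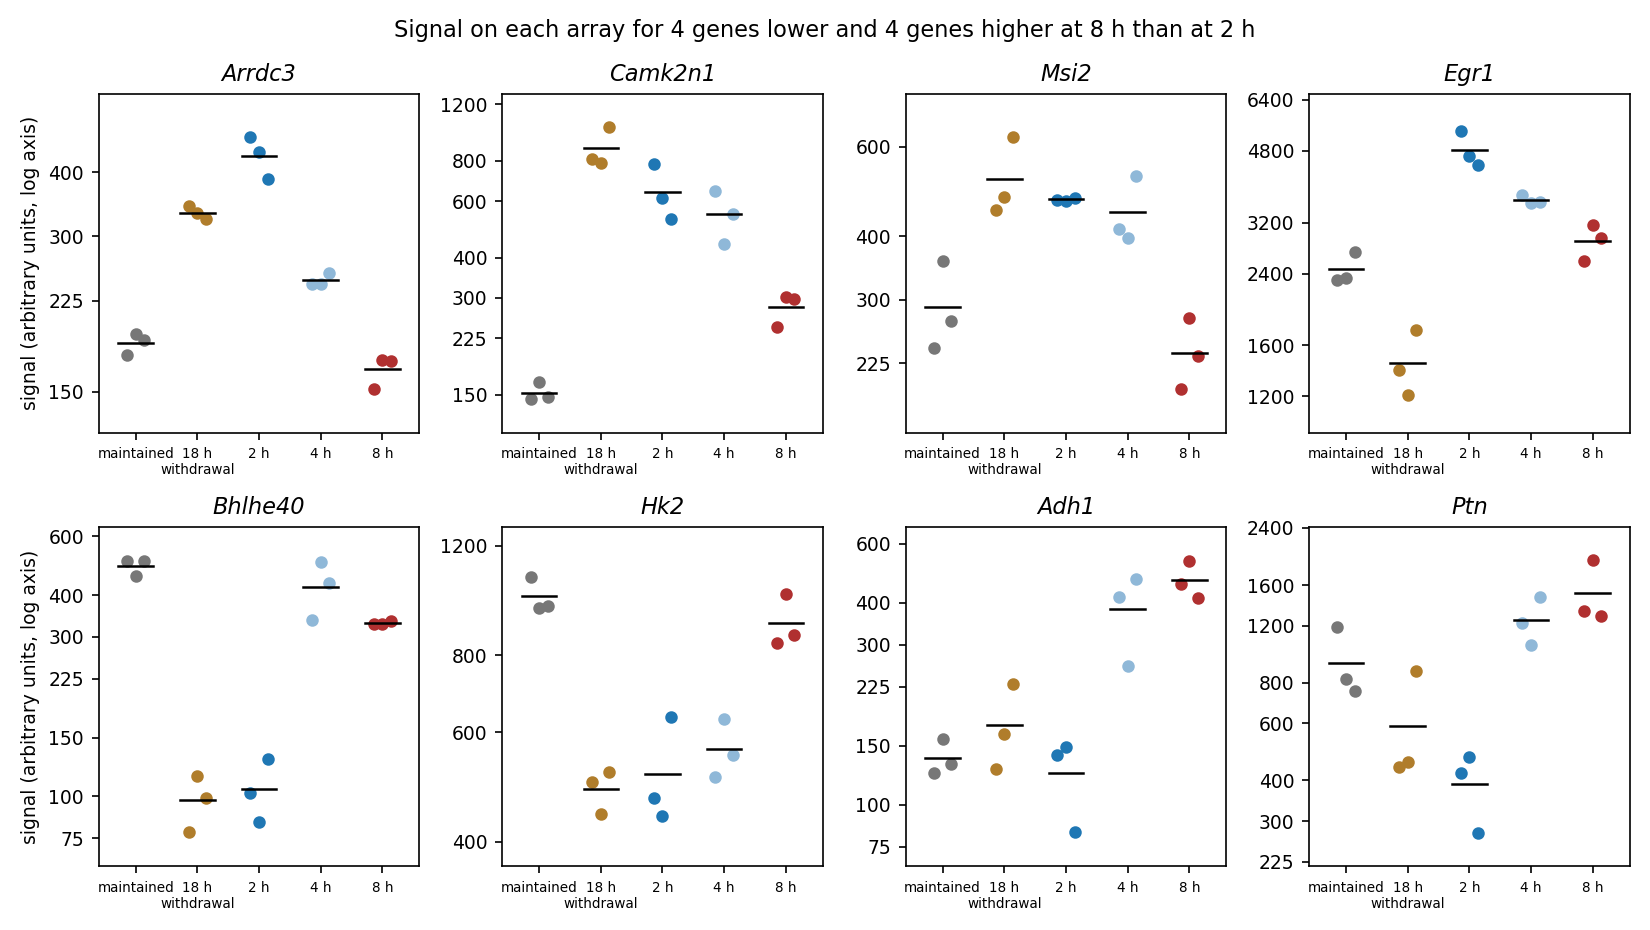
Signal on each of 3 arrays per group (points; bars are means) on a log axis for 4 genes called lower at 8 h than at 2 h (Arrdc3, Camk2n1, Msi2, Egr1) and 4 called higher (Bhlhe40, Hk2, Adh1, Ptn), in maintained cultures, after 18 h withdrawal and at 2, 4 and 8 h of replacement. In each panel no 8 h array overlaps a 2 h array, the Hk2 arrays at 4 h overlap those at 2 h, and the Bhlhe40 arrays at 4 h lie at or above those at 8 h.

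The timing of the rises and falls differed in the levels at 4 h, which share arrays with the comparison and are given beside it without a test. For the 193 genes called higher the median log2 difference was 0.88 from 2 h to 4 h and 0.09 from 4 h to 8 h. For the 49 called lower it was -0.28 and then -0.49. Over all genes, 221 were called higher at 4 h than at 2 h (1.69%) and 33 lower (0.252%), and limma called 0 genes at 8 h against 4 h, where 1943 had an unadjusted p under 0.05 and the smallest adjusted p was 0.0987. Examples that had hardly moved at 4 h were Hk2 (0.14), Dmrt1 (-0.08), Msi2 (-0.09), Hsd17b7 (-0.07) and Odc1 (-0.02), each a log2 difference from 2 h.

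Withdrawal against maintained cultures, which compares none of these 6 arrays, was set beside the same genes. Over all genes 551 were called higher on withdrawal (4.21%) and 501 lower (3.83%). Of the 49 genes called lower at 8 h, 22 had been raised on withdrawal, which is 44.9% of the 49 and 3.99% of the 551. They were Arrdc3, Camk2n1, Chaf1b, Crispld2, Dbndd2, Ddit4, Dmrt1, Hadhb, Ing2, Lrig1, Msi2, Rragd, Satb1, Serinc5, Sik3, Slc25a15, Smoc1, Txnip, Zbtb22, Zfp553, Zfp941 and Zmym3. The Wilson 95% interval of the 44.9% was 31.9 to 58.7%. It is for counting error only and takes genes measured on the same arrays as independent, so it leaves out the spread between arrays. In sign, 44 of the 49 had a withdrawal difference opposite to that at 8 h against 2 h, with a median of 0.50, where the median of all genes on withdrawal was 0.06. The share was 30.8% of 13 genes without 2 h replicate 2 and 64.7% of 17 without 2 h replicate 3, both outside that interval. The withdrawal calls include replicate 3, the array with the beta-actin 3' to 5' ratio of 2.77. Without that array the share was 32.1% of 112 genes.

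Several of these 22 genes are not in the lists and are named here after their values were seen. Rragd, a GTPase that brings mTORC1 to the lysosome, was at 796 ± 165 at 2 h and 465 ± 76.2 at 8 h (log2 -0.75, adjusted p = 0.0321), against a withdrawal log2 of 2.08. Satb1, an organiser of chromatin loops, fell by 0.95 on the log2 scale (adjusted p = 0.0119; withdrawal 1.40), and Lrig1, an inhibitor of receptor tyrosine kinases, fell by 0.73 (adjusted p = 0.0364; withdrawal 1.18). In 47 of the 49 the 2 h mean was above the maintained mean, and in 40 the 8 h mean was nearer to it than the 2 h mean. Only 2 of the genes that fell, 4.08%, had also been lowered on withdrawal (0.399% of the 501), namely Egr1 and Hsd17b7.

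Of the 193 genes called higher, 18 had been lowered on withdrawal, 9.33% of the 193 and 3.59% of the 501, and 0 had been raised. They were Adam9, Adm, Akr1b8, Ank, Ankrd37, Bhlhe40, Gramd1a, Hk2, Ier3, Lhfp, Mest, Plat, Plaur, Prss23, Rasl11a, Rhbdf1, Tnfsf9 and Zfp280c. The median withdrawal difference of the 193 was -0.10, against 0.06 over all genes, and 122 of the 193 had the opposite sign. At 8 h 178 of the 193 stood above the maintained mean, at 2 h 185 stood below it, and in 86 the 8 h mean was nearer to it than the 2 h mean. The 193 were picked for an 8 h level above the 2 h level, which favours the counts of 178 and 185, and these too are description only. Among the 18, chosen here by their overlap, Adm, the vasodilator peptide adrenomedullin, was at 72.8 ± 13.6 at 2 h and 249 ± 51.9 at 8 h, against 278 ± 40.9 in maintained cultures (log2 1.57, adjusted p = 0.000755). Ankrd37, an ankyrin repeat protein, was at 135 ± 33.1 and 354 ± 61.6, against 467 ± 4.01 (log2 1.31, adjusted p = 0.000755). Plaur, the urokinase receptor, and Plat, tissue plasminogen activator, rose by log2 differences of 0.83 (adjusted p = 0.0124) and 0.66 (adjusted p = 0.0472).

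**Figure D3:**
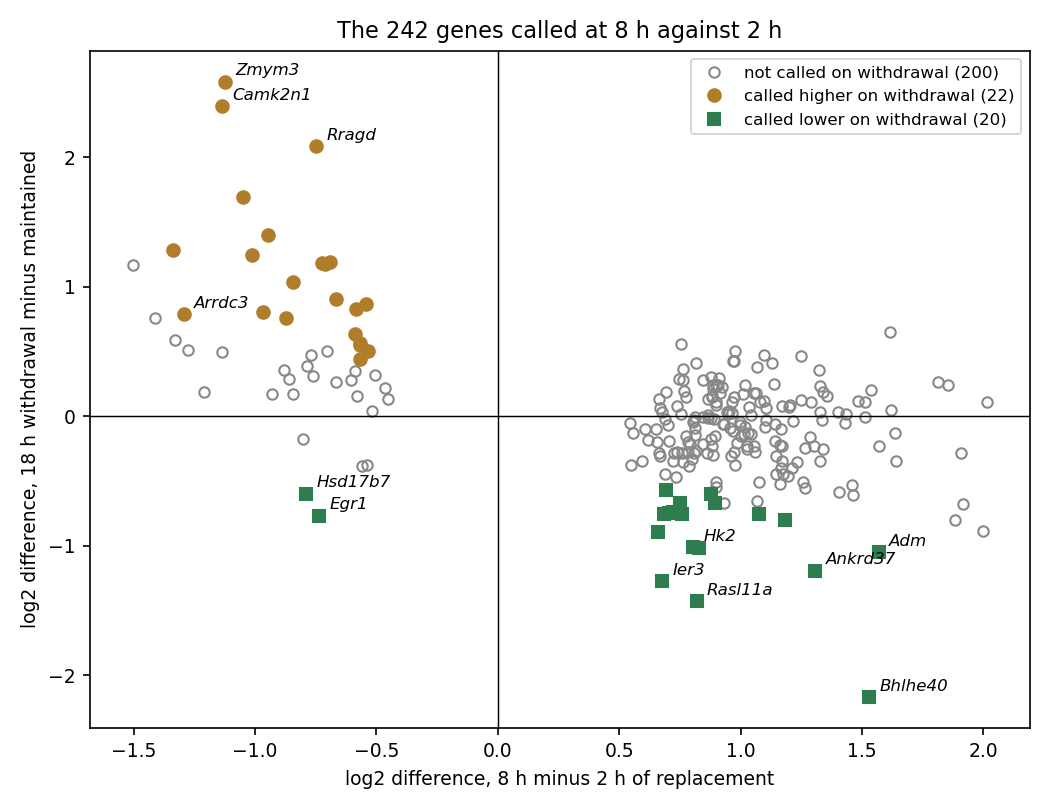
Each point is 1 of the 242 genes called at 8 h against 2 h, with that log2 difference on the x axis and the log2 difference of 18 h withdrawal against maintained cultures, from other arrays, on the y axis. Filled circles were called higher on withdrawal (22 genes, all of them lower at 8 h), filled squares called lower (20 genes, 18 of them higher at 8 h), and open circles not called there.

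The sequences upstream of the called genes were searched because members that moved together could share letters there. The 3 promoters below are chosen examples, from named genes that held a motif of the search. Other called genes held motifs too. Fhl2 had 2 promoters and Msi2 had 3, not all of which are shown. Promoters are the 300 bases from 250 before to 50 after each annotated start (RefSeq, GRCm38.p6, 5′ to 3′ on the gene's strand), and the capitals mark every match to the 8 motifs of the search. They were matched for 10570 tested genes with 13478 promoters, for 155 of the genes called higher (201 promoters) and for 40 of those called lower (56 promoters). In Fhl2 (chr1:43196712-43197011, minus strand) the capitals are a CArG box, the form of sequence bound by the serum response factor, starting 96 bases before the start. In Gga1 (chr15:78876940-78877239, plus strand) they are a CArG box 80 bases before the start and CCGGAAGT, an ETS element, 26 bases before it. In Msi2 (chr11:88718228-88718527, minus strand) they are TGACGTCA, the cyclic AMP response element, 169 bases before the start, and CACGTG, an E-box of helix-loop-helix factors, 126 bases before and 5 after it.
Fhl2: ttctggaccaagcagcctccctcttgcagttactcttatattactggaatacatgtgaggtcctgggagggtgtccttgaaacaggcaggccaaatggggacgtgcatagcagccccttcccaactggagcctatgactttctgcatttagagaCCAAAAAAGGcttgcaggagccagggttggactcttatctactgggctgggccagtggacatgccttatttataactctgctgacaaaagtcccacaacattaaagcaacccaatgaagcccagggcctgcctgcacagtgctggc
Gga1: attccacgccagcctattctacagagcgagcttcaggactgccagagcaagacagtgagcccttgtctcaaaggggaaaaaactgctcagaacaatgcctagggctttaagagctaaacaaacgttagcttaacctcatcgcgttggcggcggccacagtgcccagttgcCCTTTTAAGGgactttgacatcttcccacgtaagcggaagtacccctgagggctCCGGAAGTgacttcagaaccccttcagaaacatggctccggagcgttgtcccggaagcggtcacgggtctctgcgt
Msi2: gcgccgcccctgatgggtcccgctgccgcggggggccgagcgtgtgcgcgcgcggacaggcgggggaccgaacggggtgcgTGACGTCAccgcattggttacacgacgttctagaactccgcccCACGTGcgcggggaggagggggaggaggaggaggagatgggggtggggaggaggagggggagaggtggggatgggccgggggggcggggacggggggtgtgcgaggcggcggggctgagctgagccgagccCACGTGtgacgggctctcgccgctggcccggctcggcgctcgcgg

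Both strands were searched for 8 motifs, none of which contains another. CACGTG was in 16.1% of the promoters of genes called lower (9 of 56, of which 3 are promoters of Msi2), in 3.48% of those called higher, in 9.64% of those of all tested genes and in 7.15% of all promoters in the table. The CArG box was in 3.57% of the lower set, 2.49% of the higher, 1.24% of the tested and 1.63% of all. TGACGTCA was in 5.36% (3 promoters, each of Msi2), 0%, 2.8% and 1.79%, in the same order. TGANTCA, the AP-1 element, was in 1.79%, 8.96%, 5.35% and 7.81%. The ETS element CCGGAAGT was in 3.57%, 1.99%, 7.22% and 3.89%, and the sterol element TCACNCCAC in 0%, 0.995%, 1.17% and 1.24%. The E2F elements TTTCCCGC (0%, 0%, 1.87% and 1.07%) and TTTGGCGC (0%, 0.498%, 0.95% and 0.514%) were rare in every set. These are shares of letters in a window, with promoters of 1 gene counted apart, and no test was made.

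Immediate-early genes, the first to answer a receptor signal, were called in both directions. Egr1, the zinc finger factor induced by ERK, was at 5355, 4657 and 4442 at 2 h and 2579, 3155 and 2934 at 8 h, 1.66-fold lower (log2 -0.73, SE 0.14, adjusted p = 0.0138). All 8 h arrays were below all 2 h arrays, with the 4 h arrays at 3733, 3577 and 3589 between them, and maintained cultures at 2314, 2340.4 and 2715. The call was lost without 2 h replicate 1 and without 8 h replicate 1 or 3 (adjusted p up to 0.0769). Ier3, an early gene that limits apoptosis, moved the other way, from 417, 470.1 and 462 to 679.7, 756 and 747 (log2 0.68, SE 0.12, adjusted p = 0.00976), and lost its call only without 8 h replicate 2 (0.0572) among these 6. Of 32 immediate-early genes these 2 were called (6.25%, against 1.85% of all genes), 17 differences were positive and the median was 0.01, which changed sign after quantile normalization (-0.01) and after a shift of every array to 1 median (-0.12, where the median of all genes was -0.09).

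Other early genes were not called. Trib1, a pseudokinase that scaffolds protein degradation, was at 107, 64.7 and 76.9 and then 38, 41.8 and 18.4 (log2 -1.03, adjusted p = 0.0597); it was called with the constant of 64 (adjusted p = 0.0457), after quantile normalization (0.037) and after the shift to 1 median (0.0482). Fos had a log2 difference of -0.48 (adjusted p = 0.279) and Ier2 of -0.26 (0.399). Egr2, Junb and Plk3 lay within 0.01 of 0. Egr3 was at 0.12 on the probe set that represented it, while its other probe set was at -0.92 and not called. With the constant of 64 the brightest probe set was picked anew, and Egr3 was called lower in limma (log2 -0.71, adjusted p = 0.0118). The probe set of the main fit had a mean of 131 at 2 h and 144 at 8 h, so that value is not from it.

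No feedback inhibitor of ERK or ETS factor of the list was called. Dusp6, the ERK phosphatase, was at 827, 1024 and 1126 at 2 h and 1187, 1386 and 1075 at 8 h (log2 0.29, SE 0.26, adjusted p = 0.656). Spry4, a receptor signalling inhibitor, was at -0.00 (SE 0.20), Etv4 at -0.10 (SE 0.30) and Etv5 at 0.36 (SE 0.22), none of them called. In the list of 22 only Cdc42ep2, which is neither, was called, and the median was 0.23. A list of 8 genes described as GDNF-regulated from work on these samples, and so not independent evidence, had 0 calls in limma and a median of 0.36, with 7 positive. Among them Bcl6b, which encodes a transcriptional repressor, went from 189.9, 180.2 and 353 to 374, 523 and 438 without overlap. It just missed the call (log2 0.89, SE 0.23, adjusted p = 0.0621). It was called in limma without 2 h replicate 3 (log2 1.18, adjusted p = 0.0218). That array, at 353, was the highest of the 2 h arrays, so leaving it out raises the difference by itself. Cxcr4, a chemokine receptor, had 0.71 (adjusted p = 0.135), Lhx1 0.36 and Pou3f1 -0.26.

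Genes of the spermatogonial states showed few calls. Of 31 genes of undifferentiated spermatogonia only Thy1 was called, from 133, 114 and 81.6 to 196, 237 and 246 (log2 0.96, adjusted p = 0.0403), and Thy1 is also a fibroblast marker that lost its call without 5 of the 6 arrays. The median was -0.05, with 15 positive and 16 negative. The receptor genes Gfra1 (942, 845 and 1644, then 1086, 1066 and 1026) and Ret (log2 -0.19, SE 0.34) were not called, nor was Id4 (log2 0.48, adjusted p = 0.215) or Zbtb16 (log2 -0.05). Neurog3 and Sox3, factors of progenitors, were lower on every 8 h array than on any at 2 h, at log2 -0.73 (adjusted p = 0.119) and -0.57 (0.224), without a call. Dmrt1, a male germ cell factor that delays meiosis, fell from 2675, 2860.0 and 2548 to 1895, 2000.4 and 1559 (log2 -0.57, SE 0.12, adjusted p = 0.0253), the only call among 17 genes of differentiating spermatogonia. It lost the call without any 1 of the 6 arrays (adjusted p up to 0.144). Kit was at 0.18 (adjusted p = 0.633) and Stra8 at -0.05. None of 15 pluripotency genes (median 0.20), 12 meiotic and haploid genes (-0.12) or 17 GDNF and FGF ligands and receptors (0.05) was called in limma.

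Metabolic and growth genes gave single calls, at most 2 in a list. Over all genes 1.85% were called, so counts this small say little about a list as a whole. Hk2, the hexokinase that commits glucose to glycolysis, rose from 469.8, 439 and 635 to 836, 1005 and 861 (log2 0.80, SE 0.14, adjusted p = 0.00898), 1 of 17 glycolysis genes, whose median was -0.10. Hsd17b7, an enzyme of cholesterol synthesis, fell from 276, 331 and 334 to 172, 208 and 147 (log2 -0.79, SE 0.15, adjusted p = 0.0124), 1 of 20 genes with a median of -0.11. Atf4, the factor of the amino acid response, fell from 887, 1009 and 1091 to 653, 772 and 590.0 (log2 -0.56, adjusted p = 0.0479), 1 of 32 with a median of -0.03. Odc1, the rate-limiting enzyme of polyamine synthesis, and Dkc1, the pseudouridine synthase of the telomerase and H/ACA complexes, fell by 0.54 (adjusted p = 0.0444) and 0.47 (adjusted p = 0.0472) on the log2 scale. They were 2 of 39 ribosome biogenesis and MYC target genes, whose median was -0.15. The chaperone gene Hsph1 rose by a log2 of 0.70 (adjusted p = 0.00998), 1 of 25. None of 17 fatty acid synthesis genes was called in limma (median 0.01). Atf4 and Dkc1 lost the call without any 1 of the 6 arrays, Odc1 without 5 and Hsd17b7 without 4. Hk2 lost it without 2 h replicate 2 or 8 h replicate 2, and Hsph1 without 8 h replicate 2 (0.0554). With arrays shifted to 1 median all of these but Hsd17b7 lost the call. The other probe sets of Hsd17b7, at -0.31, -0.67 and -0.17, were not called.

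Most cell cycle genes had small negative differences. Of 35 G1/S genes 32 were negative, with a median of -0.19, and of 27 G2/M genes 25 were negative, also with a median of -0.19, and both lists sit largely among bright genes (22 of 35 and 20 of 27 in the brightest bin, whose median was -0.08). The only call was Chaf1b, a subunit of the histone chaperone CAF-1, at 516, 609.9 and 522 and then 289.9, 357 and 342 (log2 -0.71, SE 0.15, adjusted p = 0.0169), and it lost the call without 5 of the 6 arrays (up to 0.0926). Pcna was at -0.07, Ccnd1 at 0.16 and Mki67 at -0.42, each uncalled. The G1/S summed signal was 38309, 38692 and 47730 at 2 h and 36176, 34448 and 35747 at 8 h, with 2 h replicate 3 far above the other 2. Without that array 24 of the 35 were negative and the G1/S median was -0.07. With the fibroblast covariate described below the medians turned positive, to 0.07 and 0.18.

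Growth arrest genes moved both ways. Cdkn1a, the p21 inhibitor of cyclin-dependent kinases, rose from 592, 563 and 484 to 959, 1364 and 1004 (log2 0.99, SE 0.18, adjusted p = 0.0102). Ccng1, a cyclin induced by p53, rose by 0.88 (adjusted p = 0.0393) and Zmat3, an RNA-binding target of p53, by 1.10 (adjusted p = 0.0224), giving 3 of 20 p53 and apoptosis genes, where 1.48% of all genes were called higher; the list median was -0.04. With arrays shifted to 1 median, or without 2 h replicate 3, 0 of the 20 were called in limma. The fibroblast markers moved with these genes, and with the covariate Cdkn1a was at 0.29, Ccng1 at 0.13 and Zmat3 at -0.03, none called. Ddit4, an inhibitor of mTORC1, fell from 2076, 2048 and 1564 to 1135, 607 and 1138 (log2 -1.01, SE 0.22, adjusted p = 0.0217), and Txnip, a regulator of glucose uptake, from 1418, 1334 and 1124 to 809.5, 914 and 706 (log2 -0.66, SE 0.14, adjusted p = 0.0173). With Cdkn1a and Ccng1 they made 2 higher and 2 lower of 28 FOXO target and growth arrest genes, at a median of -0.01. That is 14.3% called, where 1.85% of all genes were called, 1.48% higher and 0.375% lower. Ddit4 and Txnip had been raised on withdrawal, whereas Cdkn1a had not been called there (log2 -0.21). Without 8 h replicate 2 the adjusted p was 0.119 for Ddit4, 0.0695 for Cdkn1a, 0.172 for Ccng1 and 0.13 for Zmat3, and Txnip lost its call without 8 h replicate 3 (0.0981). Of the other lists, 1 of 15 cytoskeletal and adhesion targets of the serum response factor was called (Fhl2, list median 0.28, 14 positive). With the fibroblast covariate that median was -0.03, and Fhl2 was at 0.83 without a call. Called too were 1 of 15 clock genes (Bhlhe40, list median -0.07) and 1 of 16 interferon genes (Ifi27, list median 0.19). Ifi27 went from 309, 244 and 277 to 392, 694 and 609 (log2 0.96, adjusted p = 0.0308). These single calls are 6.67%, 6.67% and 6.25% of their lists, against 1.85% of all genes.

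**Figure D4:**
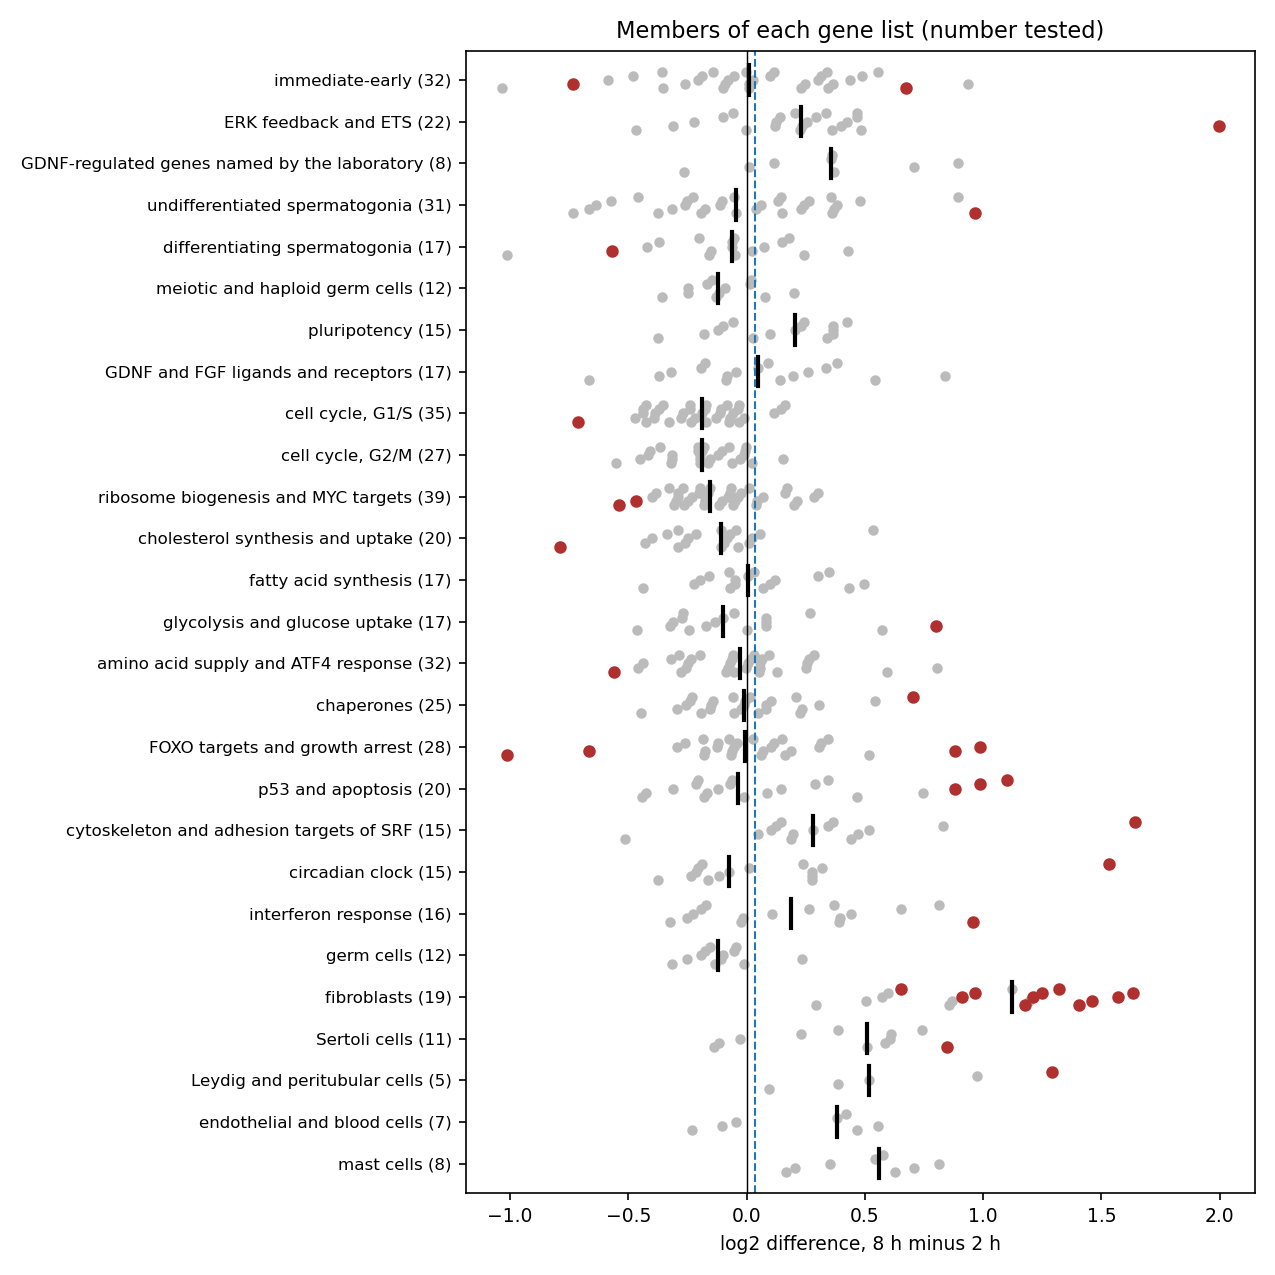
Log2 difference, 8 h minus 2 h, of every tested member of each gene list (number tested in brackets), with called genes in red, the median of the list as a black bar and the median of all genes, 0.03, as a dashed line. The fibroblast list stands to the right, with 11 of 19 members called higher and a median of 1.12, and the medians of the pathway lists lie between -0.19 and 0.36.

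Among the markers of other cells, only the fibroblast list held more than 1 call, and its calls are themselves part of the 193 rises. Of 19 tested fibroblast markers 11 were called higher (57.9%, where 1.48% of all genes were) and 0 lower, all 19 were positive and the median was 1.12. Beyond Col3a1, Postn and Thy1 these were Timp3 (log2 1.46), Col5a2 (1.41), Pdgfra (1.32), Col1a2 (1.25), Vim (1.21), Lox (1.17), Dcn (0.91) and Col5a1 (0.65). The summed signal of the list was 11642, 10475 and 6812 at 2 h and 18196, 22395 and 18958 at 8 h, with 21644, 18989 and 22552 at 4 h, 14390, 11044 and 12441 in maintained cultures and 10642, 10210 and 16324 after withdrawal. The 2 h arrays overlapped the maintained and the withdrawn ones, and 2 h replicate 3 was the lowest of all 15. Without 2 h replicate 3 or 8 h replicate 2 the count of 11 was 5, with medians of 0.90 and 1.04.

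Most germ cell markers, which the labelled cell type should hold, were among the brighter genes, with Pou5f1 (93.1 and 86.2) and Tdrd1 (97.8 and 109) the dimmer ones. Ddx4 was at 1250.2 ± 89.6 at 2 h and 1002 ± 41.4 at 8 h, and Dazl at 6605 ± 623 and 5838 ± 218. None of 12 germ cell markers was called in limma, 11 were negative and the median was -0.12, while 10 of them are in the brightest bin of genes with its median of -0.08. Their summed signal was 16559, 16154 and 17111 at 2 h and 14637, 15837 and 14409 at 8 h. Of 11 Sertoli cell markers Rhox5 was called (log2 0.85, adjusted p = 0.0259; list median 0.51), and of 5 Leydig and peritubular markers Cyp11a1 (log2 1.29, adjusted p = 0.0259; median 0.52), from 83.7, 61 and 35.3 to 147, 186 and 159.6. Rhox5 lost its call without 4 of the 6 arrays (adjusted p up to 0.129) and Cyp11a1 without 5 (up to 0.139). The summed signals of these 2 lists did not overlap between the times, at 671 to 872 and then 1021 to 1166, and at 387 to 589 and then 659 to 805. Over all genes 14.7% had 3 arrays at 8 h above all 3 at 2 h. Both lists are dim. The 2 dimmest bins of genes, with medians of 0.16 and 0.10, held 6 and 5 of the 11 Sertoli markers and 1 and 3 of the 5 others. None of 7 endothelial and blood cell markers (median 0.38) and none of 8 mast cell markers (median 0.56) was called in limma, and all 8 mast cell markers were positive. Of the Sertoli list 8 of 11 were positive, among them Clu (137 at 2 h and 212 at 8 h) and Gata4 (log2 0.74), neither called, and Wt1 was at 41.1 ± 7.58 and 37.1 ± 11.9. In the endothelial and blood cell list Kdr was at 85.4 and 129 and Cdh5 at 36.5 ± 16 and 31.9 ± 7.62.

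**Figure D5:**
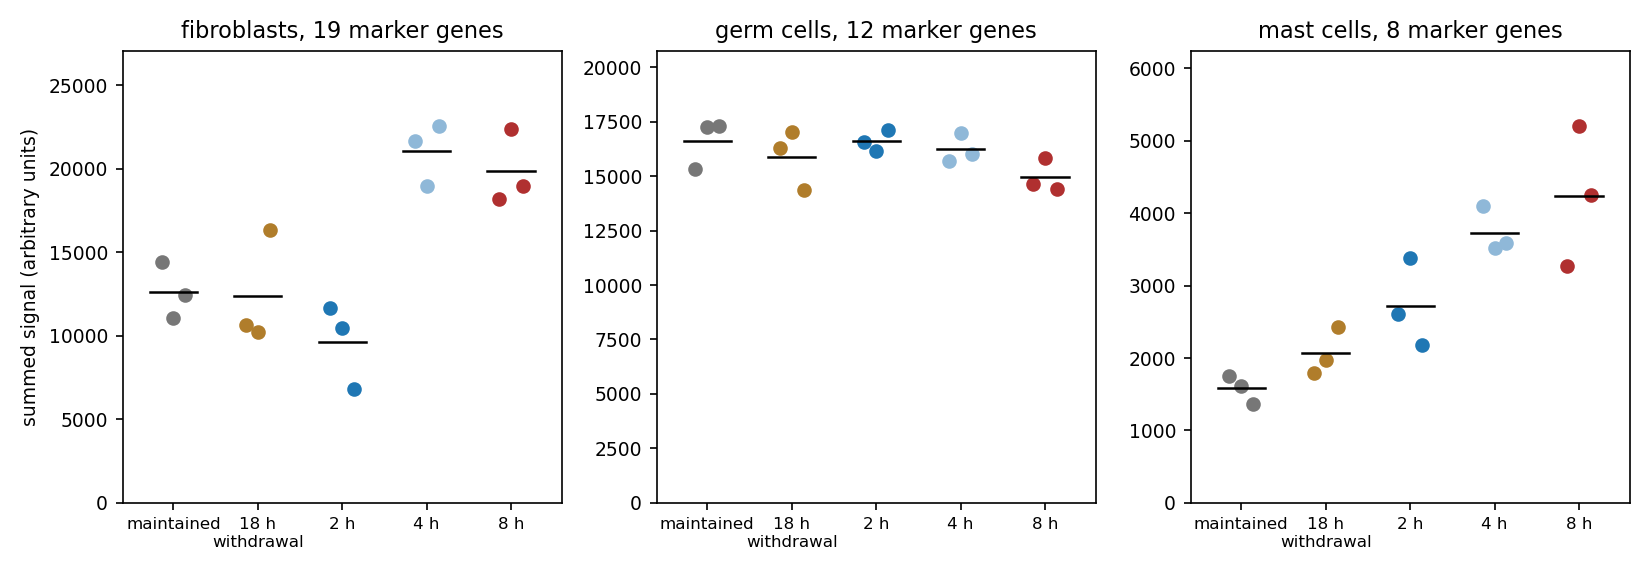
Summed signal of the tested markers of fibroblasts (19 genes), germ cells (12) and mast cells (8) on each array (points; bars are means of 3), by group, on linear axes from 0. The fibroblast sum at 8 h, 18196 to 22395, lies above all 2 h arrays, and the germ cell sum at 8 h, 14409 to 15837, lies below them.

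When the mean log2 level of the fibroblast list on each array was added to the fit, only 2 genes were called, Arrdc3 (log2 -1.42) and Camk2n1 (log2 -1.73), both lower (adjusted p = 0.0396 for each). The covariate differs between the 2 times, and the median standard error rose from 0.19 to 0.34. Its slope comes from deviations within groups. There withdrawal replicate 3, with the beta-actin ratio of 2.77, had a summed fibroblast signal of 16324 beside 10642 and 10210. The sum of 2 h replicate 3 was 6812 beside 11642 and 10475. The 49 genes that fell all kept their sign, with a median of -0.92 against -0.76, and 41 were at least as large as before. Within groups their median correlation with the markers was 0.35, against 0.04 over genes outside the list. With a covariate higher at 8 h, such a correlation enlarges a fall by itself, so the larger falls are no sign of firmer support. The 18 rises that had been lowered on withdrawal also kept their sign, with a median of 0.85 against 0.81, and 10 were at least as large as before. Among them were Bhlhe40 (1.73, adjusted p = 0.0797), Adm (1.95, adjusted p = 0.0797), Hk2 (0.90, adjusted p = 0.372) and Ier3 (0.69, adjusted p = 0.395), while Plat (0.34), Rhbdf1 (0.39), Tnfsf9 (0.46) and Prss23 (0.50) were smaller than before. The other 175 rises had a median of 0.38 against 0.97, and 150 kept their sign. They include the 11 called fibroblast markers, which are part of the covariate, so the fit takes out part of their own difference. Col3a1, 1 of those markers, was then at 0.27, and outside the list Ptn was at 0.53, Adh1 at 0.84 and Cdkn1a at 0.29, none called. The 18 and the 175 were split by the withdrawal calls. Given the high fibroblast sum of withdrawal replicate 3, a gene that followed the markers was less likely to be called lowered there. The medians of 0.85 and 0.38 are therefore description only, and the fit does not tell kinds of rise apart. Beyond this fit, the part of the fibroblast and other cell markers in these rises was not tested.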

How the data were processed

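Transcripts were measured on 15 Affymetrix arrays, 3 for each of 5 groups assigned from the sample titles. The authors deposited MAS5 signal, an intensity, per the submitters' processing notes; no source used here gives its version or settings. Each array's trimmed mean was 150. Of 45101 probe sets, GEO's platform annotation gave 34958 a single symbol, 932 several and 9211 none. After 64 control probe sets and the dimmest 40% were left out (mean signal under about 30.5), 27022 remained. Each of 13083 genes was represented by its brightest probe set, and 4154 probe sets with no single symbol were tested apart. The constant 16 was added before log2, and all 15 arrays were fitted in limma 3.58.1 (R 4.3.3; 10 residual degrees of freedom) with a variance trend and Benjamini-Hochberg adjustment. The fit was tested on simulated data.

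Genes named are the 12 called genes with the largest difference in each direction whose arrays do not overlap (clone identifiers skipped), up to 4 called members of each list and a fixed set of signalling and stem cell genes. All called fibroblast markers are given too. Others are said to be chosen after their values were seen. The genes and lists were chosen with earlier results of these data known. Alternatives were constants, filters, scalings, probe set rules, variance models, the replicate block and arrays left out. The fibroblast covariate was added after seeing the data.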

Additional observations from a re-analysis of the deposited data

How the results depend on the processing

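The 242 calls (193 higher, 49 lower) kept their sign under every alternative except the fibroblast covariate, which turned 25. Shifting arrays to 1 median gave 136 calls, 74 higher. Fitting only the 2 groups gave 498 (341 higher, 157 lower), array weights 904 (585 and 319), no filter 126 higher, and no variance trend 32 lower; the cause was not tested. The covariate, chosen after seeing the data, gave 2 calls, 0 higher and 2 lower, with a withdrawal share of 100%. Leaving out single arrays gave 61 to 430 calls, 43 to 318 higher and 13 to 112 lower, and a share of 30.8 to 64.7%. With the replicate block 217 genes were called; same-numbered arrays did not deviate together (correlations -0.00, -0.02 and -0.08), so the numbers were not taken to pair arrays. The covariate reversed Thy1 (-0.25), Zmat3 (-0.03), Timp3 (-0.06) and Cyp11a1 (-0.07). Thy1 and Timp3 are members of the list behind the covariate, so that fit takes out part of their own difference. With the constant of 64 Egr3 (-0.71) changed sign through a change of probe set. Over named genes and alternatives, 1178 values stayed on the same side of the threshold, 227 lost the call, 16 gained it and 5 reversed. Genes with signal under 30.5 in a group have folds limited by background.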

Other observations

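Probe sets with no single gene symbol held few further calls. In a fit of all 27022 probe sets, 23 of 4154 such probe sets were called in limma, 20 higher and 3 lower at 8 h, which is 0.554%. Mast cell markers, none called, had a summed signal of 1749, 1619 and 1368 in maintained cultures, 1786, 1978 and 2430 after withdrawal, 2613, 3380 and 2182 at 2 h, 4095, 3524 and 3582 at 4 h and 3274, 5204 and 4254 at 8 h. The arrays at 2 h and 8 h overlapped, and all 9 replacement arrays but 1 lay above every maintained and withdrawal array.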
